A study of Mus musculus with 8 samples.

Results

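A set of 10 genes that mark activated microglia around diseased or dying neurons (Cst7, Spp1, Trem2, Tyrobp, Lgals3, Lpl, Itgax, Clec7a, Gpnmb and Axl) were followed in the retina of mice that lack lysophosphatidylcholine acyltransferase 1 (Lpcat1). The list was given by name, and an array probe was assigned to a gene when its RefSeq transcript carried that symbol. Of the 10 genes, 9 had a probe (10 probes in all, 2 of them for Lpl), among 20018 genes with a named probe on the whole array. No probe could be matched to Clec7a, so it has no value here. Total RNA of the whole retina was measured at 2 weeks of age in 4 Lpcat1 WT and 4 Lpcat1 KO samples, all labelled as C57BL/6. Per the study's methods, the KO line was made on the C57BL6/N background and was crossed with C57BL6/J so that no mouse was homozygous for the rd8 mutation of Crb1, which itself damages the retina. No treatment is labelled, and the labels do not say whether each sample came from 1 animal or from a pool.

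Microglia are the resident macrophages of the nervous tissue. Next to injured neurons they move from a surveying state to one in which they take up lipids, debris and dying cells, and the genes of this change are read together as a disease-associated microglia programme. TREM2 is the lipid-sensing surface receptor that much of the programme depends on, TYROBP is its signalling adaptor, and CST7, SPP1, LPL, GPNMB, LGALS3, ITGAX, CLEC7A and AXL are products of the activated state. In the retina, such cells gather where photoreceptors degenerate. In bulk tissue, fewer or more microglia and less or more RNA per microglial cell cannot be told apart.

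A level is the log2 of a probe's signal after the array's own 75th percentile has been set to 0, so it compares arrays for 1 probe and not probes with each other. Differences are log2 values of KO minus WT, each with its standard error (SE) and with limma's adjusted p over the 33972 probes tested. A gene was called when a probe differed more than 1.2-fold at an adjusted p below 0.05. The Lpcat1 probe was lower in KO (-0.41 ± 0.03 in WT, -0.87 ± 0.06 in KO, mean ± SD, n = 4 each; difference -0.46, SE 0.04, limma adjusted p = 0.0036), in the direction of the labels. Whether this probe falls in the sequence removed from KO is not given in the sources used here, so it checks the labels only in part. The signal at the 75th percentile was 638.4 to 737.8, no spot was saturated, and 33113 to 36373 probes were well above background. All arrays shared 1 slide, with the WT arrays in one row and the KO arrays in the other, so row and genotype cannot be told apart. All 11 rod genes examined were detected, as a retina should show.

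Of the 8 tested genes, 4 were called higher in KO (Cst7, Tyrobp, Spp1 and Trem2) and 0 lower. Over all 14939 genes tested, 2.20% were called higher and 1.77% lower. The KO minus WT difference was positive for all 8 tested genes, against 42.2% of all tested genes, and its median was 0.34 against -0.02. Cst7 entered the test through the KO arrays alone, since 3 of its 4 WT values were not well above background. Over the 7 genes well above background on all 8 arrays, 3 were called higher and the median was 0.19. In 5 of the 8 genes every KO value lay above every WT value, which held for 8.78% of all tested genes. These were Tyrobp, Spp1, Trem2, Axl and Cst7, and the entry rule favoured this order for Cst7. The remaining 4 tested genes, Axl, Gpnmb, Lgals3 and Lpl, had differences of 0.08 to 0.19. Itgax was too dim to be tested. For 0 lower calls, limma also gave 0 members with a lower level at an unadjusted p under 0.05, and the methods' t-test gave 0. Over all 33972 tested probes, 8074 had an unadjusted p under 0.05 in either direction, which is the background for such counts here and below.

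**Figure D1:**
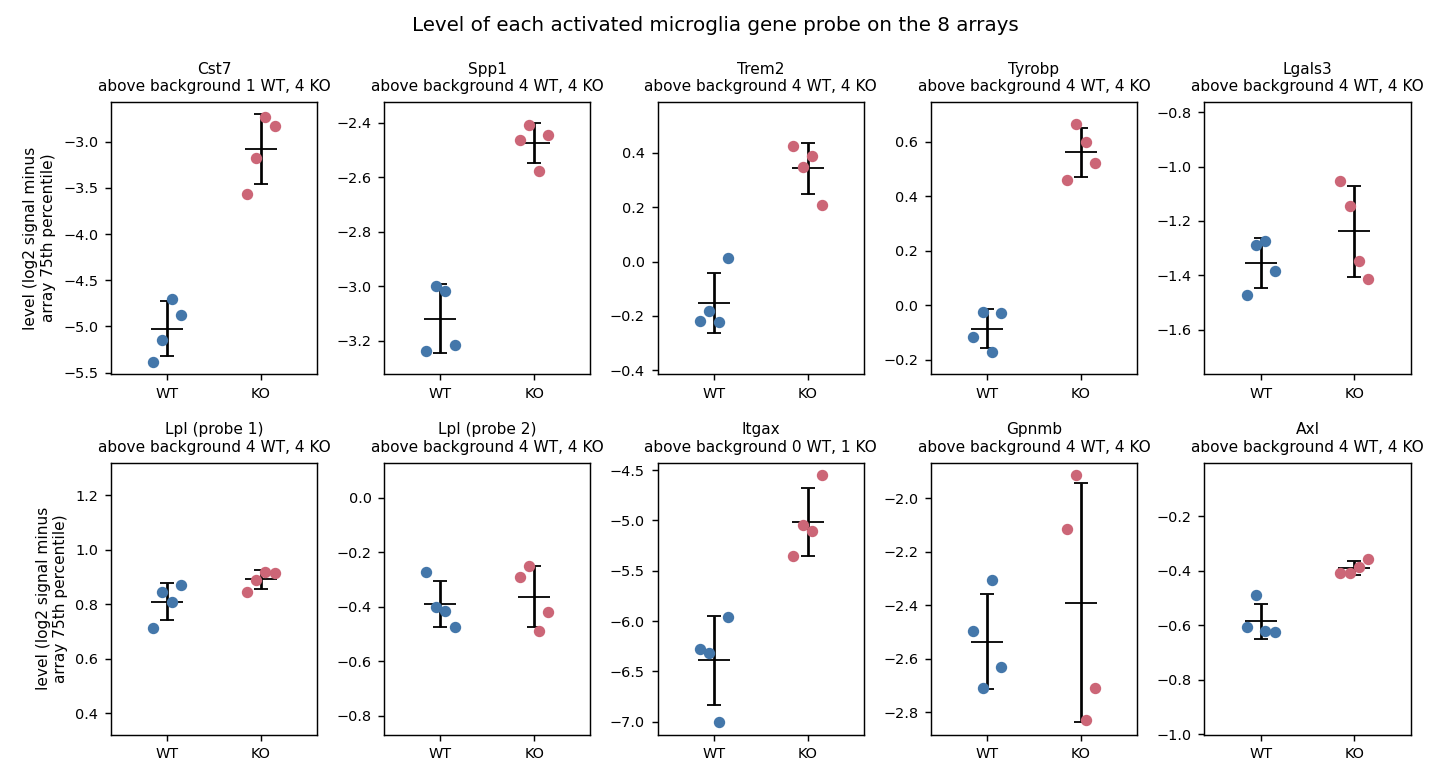
Level (log2 signal minus the array's 75th percentile) of each of the 10 probes on 4 WT and 4 KO arrays, with the mean (horizontal line) and SD (bars) and the number of arrays on which the probe was well above background. The axes differ between panels and each spans at least 1 log2 unit. The KO points lie above all WT points for Cst7, Spp1, Trem2, Tyrobp and Axl, and overlap with WT for Lgals3, Lpl and Gpnmb. Most points of Itgax, and 3 WT points of Cst7, were not well above background.

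The start regions of members that were called higher, and of 1 that was not, are shown to compare the letters before them. Promoters from RefSeq (GRCm38.p6, 250 bases before to 50 after each gene's start) were held for 8 of the 10 genes, with 10 promoters. Tyrobp and Lpl were not among them. They were searched on both strands for 4 motifs of factors active in macrophages, namely the PU.1 core GAGGAAG, the AP-1 site TGANTCA, the C/EBP site TTGNGNAA and the E-box TCACGTG of MITF and TFEB. In the 4 windows below, all on the + strand and each running from 130 bases before to 30 after the start, capitals mark the matches. They lie at chr2:150570285-150570444 (Cst7), chr5:104434981-104435140 (Spp1, the first of 2 starts), chr17:48346271-48346430 (Trem2) and chr6:49036388-49036547 (Gpnmb).
Cst7: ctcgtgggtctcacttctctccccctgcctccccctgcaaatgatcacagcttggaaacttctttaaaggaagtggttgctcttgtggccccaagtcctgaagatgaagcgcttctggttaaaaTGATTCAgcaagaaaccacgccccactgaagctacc
Spp1: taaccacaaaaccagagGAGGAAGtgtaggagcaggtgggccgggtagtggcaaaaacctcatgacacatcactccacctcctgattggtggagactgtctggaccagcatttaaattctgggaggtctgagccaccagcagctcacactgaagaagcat
Trem2: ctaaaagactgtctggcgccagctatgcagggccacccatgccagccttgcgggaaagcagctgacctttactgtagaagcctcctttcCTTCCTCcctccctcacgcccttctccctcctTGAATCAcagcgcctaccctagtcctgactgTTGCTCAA
Gpnmb: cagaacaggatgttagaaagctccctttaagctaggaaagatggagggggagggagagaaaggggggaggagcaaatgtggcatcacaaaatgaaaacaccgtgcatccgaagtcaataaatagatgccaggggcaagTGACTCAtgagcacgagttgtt
The AP-1 letters stood 6 bases before the start of Cst7, 9 bases before that of Trem2 and 8 bases after that of Gpnmb, and were also in the Itgax promoter. In all, 4 of the 8 genes held the AP-1 letters, which 7.81% of all 32851 mouse promoters held. Here and below, a gene was counted when any of its promoters held a match, while the shares are per promoter. The PU.1 core was found in 3 of the 8 genes (Spp1, Trem2 and Axl, against 13.6% of all promoters), and in Trem2 and Axl it is read on the opposite strand. The C/EBP letters were found in 3 (Trem2, Itgax and the second start of Spp1, against 13.3%; in Trem2 on the opposite strand) and the E-box in 0 (against 3.77%). No matches overlapped each other. The AP-1 letters were present in called Cst7 and Trem2 and in Gpnmb, which was not called, and absent from the window of called Spp1. These matches describe letters only.

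Trem2 and Tyrobp form the receptor and its adaptor. The Trem2 levels were -0.22, -0.18, -0.22 and 0.01 in WT and 0.42, 0.35, 0.39 and 0.21 in KO, in the order of replicates 1 to 4. WT replicate 4 stood highest and KO replicate 4 lowest of their groups, and the groups did not overlap. Trem2 rose by 0.49 (SE 0.07, limma adjusted p = 0.0127; 95% interval 0.33 to 0.65), a 1.41-fold higher signal. It lost its call without a filter on dim probes (limma adjusted p = 0.0517) and with the replicate number as a block (0.0618), and its difference lay under a fold of 1.5. With each array left out once it remained called (up to 0.0469).

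The Tyrobp levels were -0.12, -0.02, -0.17 and -0.03 in WT and 0.46, 0.67, 0.60 and 0.52 in KO. Every KO array stood above every WT array, with a gap larger than the spread within either genotype. Tyrobp rose by 0.65 (SE 0.06, limma adjusted p = 0.0034; 95% interval 0.51 to 0.78), or 1.57-fold, and remained called with each array left out once (adjusted p up to 0.0180). As TYROBP also serves receptors other than TREM2, its level is not a readout of 1 receptor.

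Genes that act with this receptor were taken as a list of 24 TREM2 and TYROBP partners and downstream signalling genes. Of these, 15 were tested, 3 were called higher and 0 lower, with a median difference of 0.19 against -0.02 over all tested genes. The 3 were Blnk, an adaptor that links SYK to phospholipase C (0.47, SE 0.08, limma adjusted p = 0.0182), Vav1, an exchange factor for small GTPases (0.40, SE 0.07, 0.0214), and Ptpn6, a phosphatase that dampens such signals (0.31, SE 0.07, 0.0387). All 3 lost the call with the replicate number as a block (limma adjusted p of 0.0591, 0.0600 and 0.0804) and depended on single arrays. Blnk was not called without WT replicate 2 or 3 or KO replicate 2 or 4 (adjusted p up to 0.0546). Vav1 kept its call only without WT replicate 2 or KO replicate 1 (otherwise up to 0.0632) and Ptpn6 only without WT replicate 3 (otherwise up to 0.0951). Vav1 and Ptpn6 were also not called under another background correction (normexp), whose offset shrinks the differences of dim probes. The kinase Syk, which docks on TYROBP, differed by -0.05 (SE 0.29), with an SD between arrays of 0.40 in WT and 0.55 in KO, and the phosphatase Inpp5d by -0.09 (SE 0.06). Fcer1g, another adaptor of the TYROBP kind, was higher by 0.26 (SE 0.06, limma adjusted p = 0.0467), under the 1.2-fold limit. For the 0 lower calls, 0 of the 15 were lower at an unadjusted p under 0.05 and the methods' t-test called 0.

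Cst7, which encodes cystatin F, an inhibitor of lysosomal cathepsins, had the largest difference of the 8 tested members. Its levels were -5.38, -5.14, -4.70 and -4.87 in WT and -3.57, -3.18, -2.74 and -2.83 in KO. Before scaling, the WT signals were 16.0 to 26.6 and the KO signals 55.2 to 95.7. The scanner software placed all 4 KO values, but only 1 of the WT values, well above background. Both genotypes were lowest in replicate 1, and the KO arrays lay far above the WT arrays. Cst7 was called higher in KO, with a difference of 1.95 (SE 0.21, limma adjusted p = 0.0053) on these signals. The size of this difference is not firm, as the 3 WT values not well above background are bounds. With each WT array set no lower than its own lowest signal well above background, the difference was 1.90. This changed only the value of WT replicate 1, so it could not move the difference far and does not bound it. The normexp correction adds an offset of 50 to every signal, which by itself shrinks the differences of dim probes. With it the Cst7 difference was 0.66 and still called (limma adjusted p = 0.0050), beside 0.61 for the much brighter Tyrobp. Cst7 was called in every run that left out 1 array (up to 0.0289).

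The 5 genes outside the list whose uncorrected levels over the 8 arrays ran closest to those of Cst7 were found by the root mean square distance of levels centred on each gene's mean, among 14931 genes. They were Etnppl, a phospho-lyase of ethanolamine phosphate (distance 0.19), Cebpe, a myeloid transcription factor (0.31), Edn2, an endothelin peptide (0.38), Ccl6, a chemokine of myeloid cells (0.45), and Fos, an AP-1 subunit (0.46). The median distance over all these genes was 1.03. Their KO minus WT differences, whose direction is set by the choice of genes close to Cst7, were 1.17 for Ccl6, 1.42 for Fos, 1.90 for Edn2 and 1.93 for Etnppl. With normexp they were 0.60, 1.29, 1.14 and 1.24, and that of Cebpe 0.50, against 0.66 for Cst7, so the order of closeness holds for the uncorrected levels and was not computed for the corrected ones. The Cebpe probe was well above background on 0 WT arrays, so its WT levels and its distance rest on bounds, as do the WT levels of Cst7 on 3 arrays. Edn2 was no longer called on removal of WT replicate 2 (limma adjusted p = 0.0559) or of KO replicate 4.

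Spp1 encodes osteopontin, a secreted adhesion protein. Its levels were -3.24, -3.00, -3.02 and -3.22 in WT and -2.46, -2.41, -2.58 and -2.44 in KO. The genotypes were apart on all arrays, and the highest WT value, that of replicate 2, was below the lowest KO value, that of replicate 3. Spp1 rose by 0.65 (SE 0.07, limma adjusted p = 0.0055; 95% interval 0.49 to 0.81), or 1.56-fold, and it remained called with each array left out once (up to 0.0254). The normexp correction shrank the difference to 0.36, still called. Among receptors of osteopontin, Cd44 differed by 0.33 (SE 0.08, limma adjusted p = 0.0584) on its brighter probe and by -0.13 on the other, without a call, and the integrin subunits Itgav and Itgb3 differed by 0.10 and 0.14.

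Axl is a TAM receptor tyrosine kinase, a family whose members bind GAS6 and PROS1 on dying cells. Its levels were -0.61, -0.49, -0.62 and -0.62 in WT and -0.41, -0.41, -0.39 and -0.36 in KO. All KO values lay above all WT values, and 1 WT array stood apart from the other WT arrays. The difference was 0.19 (SE 0.04, limma adjusted p = 0.0407; 95% interval 0.10 to 0.29), a 1.14-fold higher signal, so Axl passed the limit on p and not that on fold change. The adjusted p ran from 0.0505 to 0.104 when 1 array was left out. Of the related genes, Mertk, the TAM receptor that drives uptake of photoreceptor outer segments, rose by 0.50 (SE 0.10, limma adjusted p = 0.0348). With each array left out once, Mertk kept its call only without KO replicate 1 or 4 (otherwise up to 0.0956), and it lost its call with the replicate block (0.0821). Tyro3 and Gas6 differed by -0.10 and -0.04, and Pros1 was higher by 0.34 without a call (SE 0.09, adjusted p = 0.0708). Mertk was the single called gene among 24 tested ligands, receptors and relatives of the members, whose median difference was 0.00 (0 lower by limma or the methods' t-test, 2 at an unadjusted p under 0.05).

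Gpnmb encodes a glycoprotein of lysosomes and melanosomes. Its levels were -2.50, -2.71, -2.30 and -2.63 in WT and -2.11, -1.91, -2.83 and -2.71 in KO. KO replicates 1 and 2 were the highest of the 8 arrays and KO replicate 3 the lowest, so the groups overlapped. The difference was 0.14 (SE 0.21, limma adjusted p = 0.716), with a 95% interval of -0.33 to 0.62 that holds both no change and a rise as large as that of Trem2. Without KO replicate 2 it was -0.02. Pigment cells also express Gpnmb. Over the whole list of pigment epithelium and melanocyte genes, 10 of 12 were tested, 1 was called higher (Mitf, 0.31, SE 0.05, limma adjusted p = 0.0178, up to 0.0569 and not called without WT replicate 4, KO replicate 2 or KO replicate 4) and 0 lower (0 also at an unadjusted p under 0.05 and by the methods' t-test), and the summed level ran from 49.4 to 53.0 on the WT arrays and from 51.8 to 57.1 on the KO arrays, on a linear scale where 1 is the array's 75th percentile. That sum mostly follows its brightest probe, Rlbp1, which is also in the Müller glia list. Tyrp1, Pmel, Dct, Mlana and Ttr were, like Gpnmb, higher in both KO replicates 1 and 2 than in KO replicates 3 and 4. Tyr, Mitf, Rpe65, Lrat and Rlbp1 did not have this order. The part of pigment cells in the Gpnmb signal was not tested.

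Lgals3, the gene of galectin 3, a lectin that binds damaged lysosomes, had levels of -1.47, -1.29, -1.27 and -1.38 in WT and -1.05, -1.14, -1.35 and -1.41 in KO. KO replicates 1 and 2 were above the WT range, as they were for Gpnmb, and KO replicates 3 and 4 were within it. The difference was 0.12 (SE 0.09, limma adjusted p = 0.466; 95% interval -0.09 to 0.32). It was 0.05 without KO replicate 1 and 0.17 without KO replicate 4.

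Lpl encodes lipoprotein lipase, which frees fatty acids from lipoproteins. On its first probe the levels were 0.71, 0.84, 0.81 and 0.87 in WT and 0.84, 0.89, 0.92 and 0.92 in KO. The groups overlapped, and the difference was 0.08 (SE 0.05, limma adjusted p = 0.313; 95% interval -0.02 to 0.19). It was 0.05 without WT replicate 1 and 0.03 with the normexp correction. The second probe gave 0.03 (SE 0.07, limma adjusted p = 0.832; 95% interval -0.13 to 0.18). Both intervals lie below the 1.2-fold limit, which is 0.26 on the log2 scale. Lmf1, needed to fold the enzyme, and Gpihbp1, which holds it on capillaries, differed by 0.04 and -0.06, and a second, dimmer Lmf1 probe by -0.24, without a call.

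Itgax encodes the integrin subunit CD11c. Its probe was well above background on 0 WT arrays and on 1 KO array, KO replicate 4, and was not tested. The levels, which are bounds where the probe was not well above background, were -6.27, -6.32, -7.01 and -5.96 in WT and -5.35, -5.05, -5.11 and -4.55 in KO. The unscaled WT signals were 5.38 to 11.3 and the KO signals 16.0 to 28.9. As 7 of the 8 values are bounds, neither an order of the genotypes nor a fold change is given. The partner of CD11c, Itgb2, differed by -0.23 (SE 0.07, limma adjusted p = 0.0866).

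**Figure D2:**
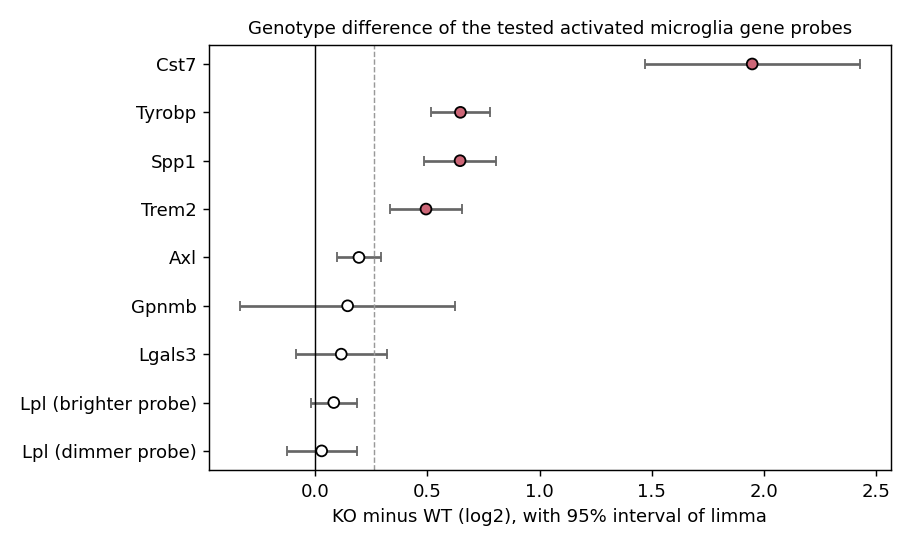
KO minus WT difference (log2) of the 9 tested probes with 95% intervals from limma. Filled points were called higher, the dashed line is a fold change of 1.2 and the solid line is no difference. The intervals of Gpnmb, Lgals3 and Lpl cross 0, and the position of Cst7 (1.95) rests on WT values of which 3 were not well above background (0.66 with normexp).

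Further genes of the same activation programme were taken as a list of 35, of which 28 were tested. Of these, 4 were called higher and 0 lower (3 lower at an unadjusted p under 0.05, 0 by the methods' t-test), and the median difference was 0.11. Ccl6 had a level of -3.34 ± 0.11 in WT and -2.17 ± 0.09 in KO and rose by 1.17 (SE 0.07, limma adjusted p = 0.0005), and Cd52, a surface peptide of leukocytes, rose by 0.78 (SE 0.08, 0.0048). With normexp the differences of Ccl6 and Cd52 were 0.60 and 0.59, both still called. Apoe, the lipid carrier, rose by 0.29 (SE 0.04, 0.0122), was not called with the normexp correction (0.26, under the fold limit), and is also made by Müller glia. B2m, the light chain of class I histocompatibility molecules, rose by 0.44 (SE 0.09, 0.0381), and with 1 array fewer it kept its call only without WT replicate 4 (otherwise up to 0.101). B2m also lost its call with the replicate block (0.0753). The cathepsins Ctsb, Ctsd, Ctsl and Ctsz, which digest lysosomal protein, had differences of 0.04 to 0.12 without a call. Cd9 and Cd63, both tetraspanins, were higher by 0.20 (SE 0.04, adjusted p = 0.0323) and 0.19 (SE 0.04, 0.0362), under the fold limit. The iron store gene Fth1 and the lipid carrier Fabp5 differed by -0.11 and -0.19 without a call. Of the 6 untested genes, the chemokines Ccl3 and Ccl4 were well above background on 2 and 3 KO arrays and on 0 WT arrays.

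Genes that resting and activated microglia and other macrophages share were examined as a list of their own. Of 20 such genes, 17 were tested, 9 were called higher and 0 lower (2 at an unadjusted p under 0.05, 0 by the methods' t-test), with a median of 0.36. C1qc, C1qb and C1qa, the 3 chains of complement C1q, rose by 0.57 (SE 0.06), 0.54 (SE 0.06) and 0.50 (SE 0.08), with limma adjusted p of 0.0048, 0.0053 and 0.0210. Ly86, a partner of a Toll-like receptor homologue, rose by 0.46 (SE 0.07, 0.0154). Adgre1, a surface receptor typical of mouse macrophages, was called on 1 probe (0.70, SE 0.06, 0.0027) and not on its brighter one (0.38, SE 0.10, 0.0656). With normexp the called probe differed by 0.31, still called. C1qb, C1qc, Mpeg1 and this Adgre1 probe were called in every run that left out an array, while C1qa, Ly86, Aif1, Ctss and Fcgr3 each lost the call in 2 to 6 of 8, Ly86 on removal of replicate 2 of either genotype (0.0509 at most) and Fcgr3 in all runs but those without KO replicate 1 or 4 (up to 0.0815). Fcgr3 was also not called with normexp (0.21), and Aif1, Ctss and Fcgr3 were not called with the replicate block (adjusted p of 0.0570, 0.0830 and 0.0811). The count of 9 became 5 without WT replicate 2 or 3 or without KO replicate 2 or 3. The mean level of the 17 genes lay higher on every KO array than on any WT array (-0.97 ± 0.02 in WT and -0.68 ± 0.04 in KO, SD, n = 4 each). Their summed linear level, which follows the brightest probes, was 28.8 to 36.6 in WT and 32.3 to 37.8 in KO and overlapped. Not every gene of this list rose. Itgb2 differed by -0.23 (SE 0.07, limma adjusted p = 0.0866), with every KO value below every WT value. Coro1a differed by -0.10 (SE 0.04, 0.187), and Itgam by 0.02 (SE 0.14) on its brightest probe. The defining transcription factor Spi1 was well above background on 0 arrays.

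Homeostatic microglia genes, which activated microglia are known to turn down, were examined next. Of 17 genes, 16 were tested, 1 was called higher (Mef2c, 0.31, SE 0.06, limma adjusted p = 0.0352) and 0 lower, and the median was 0.18. At an unadjusted p under 0.05, 10 were higher and 1 was lower, beside 8074 of all 33972 tested probes in either direction. The methods' t-test called 0 in either direction. Cx3cr1, the fractalkine receptor, was higher by 0.23 (SE 0.05, adjusted p = 0.0464), under the fold limit. Tmem119 differed by 0.26 (SE 0.08, 0.0896), P2ry12, an ADP receptor, by 0.06 (SE 0.07, 0.667) and P2ry13 by 0.09 (SE 0.13, 0.704). The gene that was lower was Cst3 (-0.19, SE 0.04, adjusted p = 0.0332), the cystatin that macroglia also make, again under the fold limit. Leaving out any 1 array but KO replicate 3 ended the call of Mef2c (adjusted p up to 0.0984), and so did normexp (0.26, under the fold limit). The mean level of the 16 genes was 0.27 ± 0.02 in WT and 0.41 ± 0.05 in KO, higher on every KO array than on any WT array, while their summed linear level overlapped (403.3 to 466.3 in WT and 404.7 to 461.2 in KO).

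To set the members beside these genes, each member's level was taken relative to the mean level of the 17 shared microglia genes on the same array, a comparison chosen after the levels had been seen and given without a test. The mean level of the 17 genes differed by 0.29. Relative to it, Tyrobp was 0.35 higher in KO, Spp1 0.35 and Trem2 0.20. The value for Cst7 was 1.65, from WT levels of which 3 were not well above background. The relative difference was -0.21 for Lpl, -0.18 for Lgals3, -0.15 for Gpnmb and -0.10 for Axl. The KO values stayed above all WT values for Cst7, Tyrobp and Spp1, lay below all WT values for Lpl, and overlapped for Trem2, Lgals3, Gpnmb and Axl. Relative to the mean of the 16 homeostatic genes, which differed by 0.14, the KO values of Trem2 (0.35 higher) were above all WT values too, and those of Lpl (-0.06) overlapped.

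**Figure D3:**
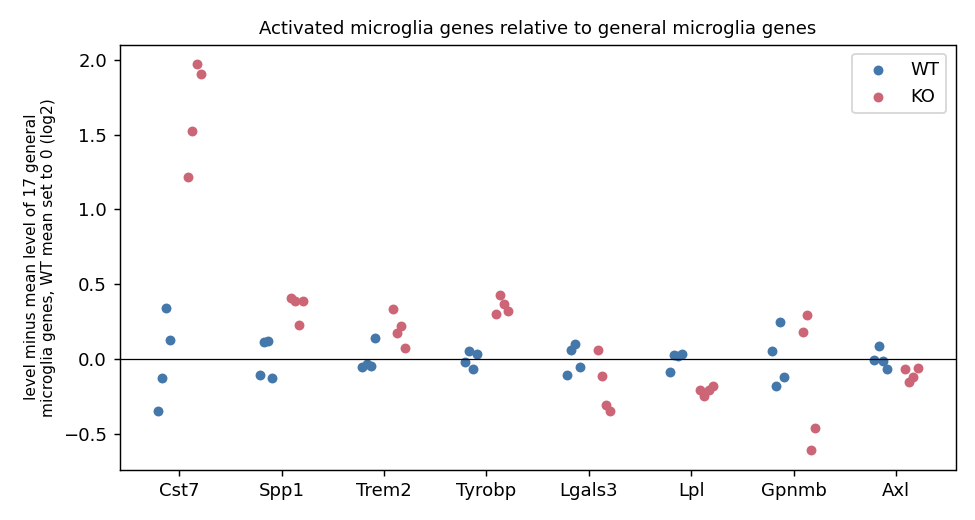
Level of each tested member minus the mean level of 17 shared microglia genes on the same array (log2), with the WT mean of each gene set to 0, for 4 WT and 4 KO arrays. Tyrobp (0.35) and Spp1 (0.35) lie above WT and Lpl (-0.21) lies below it. Cst7 is at 1.65, with 3 of its WT levels not well above background.

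Markers of other cells were set beside these values, with summed levels that mostly follow each list's brightest probes. Of 15 monocyte and neutrophil genes, 13 had a probe and 5 were tested, with 0 called in either direction (1 higher at an unadjusted p under 0.05, 0 calls by the methods' t-test, and 1 higher under quantile normalization, the percentile of detected probes, array weights, no minimum fold and the authors' values). Ccr2, S100a8, Ngp, Cd177, Retnlg, Mrc1 and Cd163 were well above background on 0 of 8 arrays, S100a9 on 1 WT and 1 KO array, and Ly6c2 and Ly6g had no matched probe. The summed level of the list was 7.45 to 8.26 in WT and 7.76 to 8.58 in KO. Of 12 Müller glia and astrocyte genes, 3 were called higher (Kcnj10, Clu and Apoe, by 0.31, 0.30 and 0.29, with 5 under quantile normalization or no minimum fold, 1 with the replicate block, and 0 without a filter on dim probes or with a minimum fold of 1.5), with summed levels between 345.1 and 363.5 in WT and between 412.5 and 421.2 in KO. Kcnj10 was not called without KO replicate 2 (limma adjusted p = 0.0509) and Clu not without WT replicate 2 (0.0531). Of 11 rod genes, 3 were called lower (Nr2e3, Sag and Prph2, with 1 under quantile normalization, without a filter or with the replicate block, 0 with a minimum fold of 1.5 and 6 with none), and the summed level was 2007 to 2085 in WT and 1687 to 1841 in KO. Without any 1 of WT replicates 1 to 4, KO replicate 2 or KO replicate 4, 1 rod gene was called. Prph2 was called only on its dimmer probe (-0.28, SE 0.05, limma adjusted p = 0.0297). Its brighter probe differed by -0.26 (SE 0.10, 0.167). With 1 array left out, Nr2e3 and the dimmer Prph2 probe kept their calls only without KO replicate 1. As levels are relative to the array, the part that a smaller share of rod RNA has in the rise of the microglia genes was not tested. Ganglion cell genes (12 tested, median 0.04), vascular genes (11, -0.06) and red cell genes (5, 0.06) had 0 calls by limma and by the methods' t-test. At an unadjusted p under 0.05 there were 3, 4 and 0 genes, beside 8074 of all 33972 tested probes. The summed level of the ganglion cell genes was 197.2 to 199.8 in WT and 204.1 to 210.2 in KO, higher on every KO array. That of the vascular genes was 26.5 to 27.7 in WT and 24.6 to 26.6 in KO, and that of the red cell genes 35.6 to 47.5 and 38.5 to 55.4, and both overlapped. The part of these cells in the rise of the microglia genes was not tested.

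**Figure D4:**
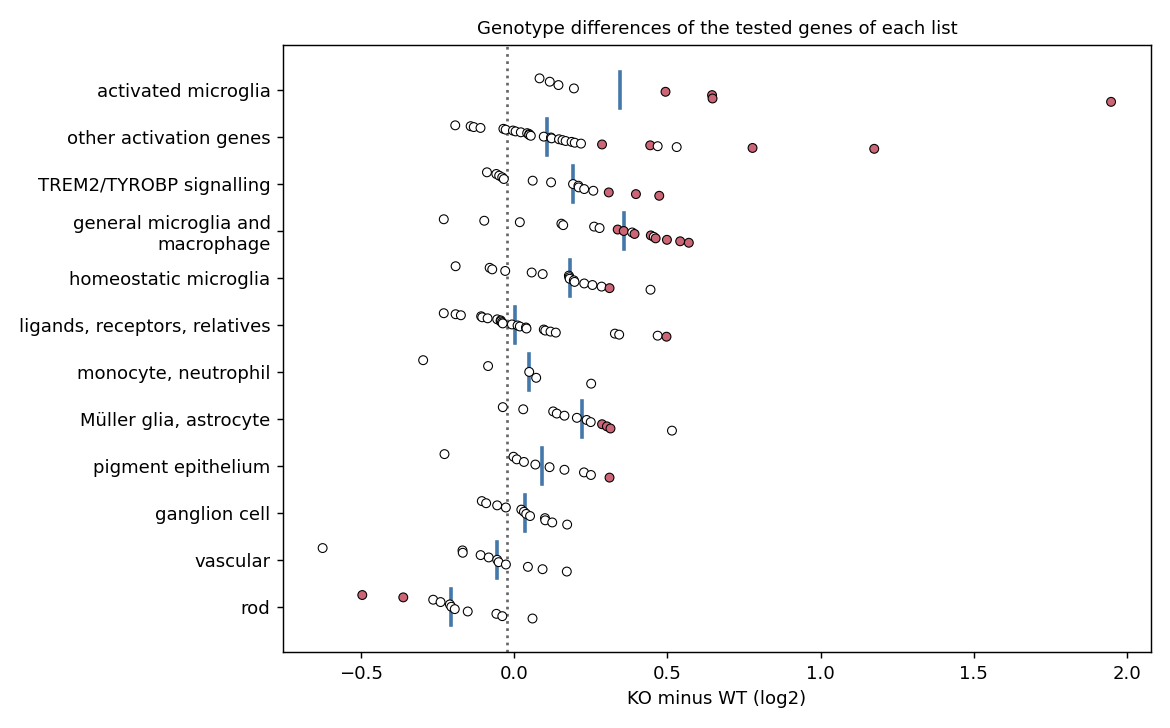
KO minus WT difference (log2) of each tested gene of the lists, 1 point per gene at its brightest tested probe. Filled points are probes that were called, blue bars are the list medians and the dotted line is the median of all tested genes (-0.02). The medians were 0.34 for the activated microglia genes, 0.36 for the shared microglia and macrophage genes and -0.21 for the rod genes.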

How the data were processed

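Total RNA of whole retina was labelled with Cy3 and hybridised, 1 sample per array, to an Agilent mouse expression array (4 WT and 4 KO, grouped and numbered by their titles). The deposited scanner files hold intensity on a linear scale, which the authors extracted with Feature Extraction 10.7.1.1, per the file headers with the background subtracted and without scaling between arrays. The series table deposited by the authors holds log2 values after a 75th percentile shift in GeneSpring and served as an alternative. The array design names mouse build mm9, and gene symbols came from a RefSeq table by transcript accession, which named 26413 of 55681 probes.

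Each array's processed signals were put on a log2 scale and shifted so that the 75th percentile of its 59305 non-control spots lay at 0. Outlier spots were left out (86 to 147 per array) and repeated spots were averaged. A probe entered the test when 1 genotype or both had all 4 arrays well above background (33972 probes). lmFit and eBayes of limma 3.58.1 (R 4.3.3) compared the genotypes, with no covariate, and p-values were adjusted by Benjamini-Hochberg over these probes. A gene's value was that of its tested probe with the highest mean over 8 arrays. Since nothing says that samples came from separate animals, p-values measure the spread between samples. The number of arrays limits the precision.

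The members and all gene lists were chosen with earlier results of these data known. A gene of the rod list and a gene of the monocyte and neutrophil list are not reported here. Named were all members, up to 5 called genes of each list, 5 genes nearest to Cst7 and Lpcat1. The 4 other called genes of the shared microglia list (Mpeg1, Aif1, Ctss and Fcgr3) were chosen after their values were seen. So were a few uncalled genes of that list, the pigment genes and a few genes given for their role beside a member. The fit was tested on simulated data. Alternatives were other normalizations, filters, fold limits, limma settings, the methods' t-test, a replicate block, the authors' values, normexp background correction (offset 50, on median signals because no mean signals were used here) and leaving out each array in turn. No column of per-sample values was left unused (0).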

Additional observations from a re-analysis of the deposited data

Results flagged for a closer look

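Among 20 sets of 4 values (10 probes in each genotype), 1 held a value far from the other 3. The Axl level of WT replicate 2 was -0.49, and the nearest other WT array was at -0.61. The gap was 0.877 of the whole range of the 4 values, above Dixon's critical value at the 95% level. Chance alone marks about 1 in 20 such sets. Without this array the Axl difference was 0.23 (limma adjusted p = 0.0505).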

How the results depend on the processing

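The count of 4 members called higher was 3 to 5 under all alternatives and 4 in each run that left out 1 array. It was 3 without a filter on dim probes, with probes well above background on all 8 arrays (which leaves Cst7 out), with a minimum fold change of 1.5 and with the replicate block, and 5 with no minimum fold change. The median difference over members (0.34) was 0.49 without a filter, which adds Itgax, 0.19 with probes well above background on all 8 arrays, which drops Cst7, and 0.27 with normexp, and 0.33 to 0.39 when 1 array was left out. The Gpnmb difference ran from -0.015 (without KO replicate 2) to 0.29 when 1 array was left out. Over single members, 178 of 183 alternative values kept direction and side of the threshold, 3 lost the call of Trem2, 1 gained a call of Axl, and 1 turned the sign of Gpnmb, given above.

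The counts of genes called higher in the other lists moved more, and the cause was not tested. The 4 further activation genes became 2 with a minimum fold of 1.5 and 7 with none, and 3 to 4 when 1 array was left out. The 1 homeostatic gene became 0 without a filter, with normexp, with the methods' t-test, with the replicate block and with a minimum fold of 1.5, became 4 with no minimum fold, and was 0 to 1 with 1 array left out. The 3 signalling genes became 0 without a filter, 1 with normexp, 0 with the replicate block, 0 with a minimum fold of 1.5, 5 with none, and 0 to 3 with 1 array left out. The 9 shared microglia genes became 4 without a filter, 1 with a minimum fold of 1.5, and 5 to 9 with 1 array left out. The 1 gene among ligands, receptors and relatives became 0 without a filter, with the methods' t-test and with a minimum fold of 1.5, 2 with the stricter filter, with normexp and with array weights, 3 with a trend and robust eBayes, and 0 to 3 with 1 array left out.

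Same-numbered WT and KO samples had correlated deviations of 0.249, 0.0686, 0.0369 and 0.112, not all over 0.1, so the numbers were not taken as pairs. With replicate number as a block, Trem2 had a limma adjusted p of 0.0618, and genes called higher over the whole array went from 328 to 155 and lower from 264 to 96. Of the 8 samples, 7 correlated best with their own number (WT replicate 3 did not), a hint from the data and not from the design. Without a filter these counts were 103 and 70, with a minimum fold of 1.5 they were 55 and 24, with none 541 and 584, and they fell to 158 and 115 without WT replicate 2. Signals near background limit Cst7, Spp1 and Itgax. The differences of dim probes, such as those of Cst7, Spp1 and Ccl6, depend on the background correction, and the offset of normexp shrinks them. Itgax was not tested under either correction.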
